A study of Drosophila melanogaster with 2 samples.

Results

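The neuroblast, neuron and glia genes are 56 genes of the fly nervous system, chosen by name from a list. They are 22 genes of neuroblasts, the dividing stem cells of the nervous system, 22 genes of differentiated neurons and 12 genes of glia. All 56 were found among the 18277 genes of the dm6 annotation, of which 13968 code for proteins. Their binding by Wdn was read from peaks of chromatin immunoprecipitation with sequencing (ChIP-seq). Wdn is the C2H2 zinc finger protein encoded by wings down. The samples were whole Drosophila melanogaster embryos aged 0 to 24 h from a transgenic strain with an insertion for a Wdn protein fused to eGFP, and chromatin was recovered with an antibody against GFP. There was 1 group of 2 biological replicates, and a control library was not analysed here. Whole embryos mix neuroblasts, neurons, glia and all other cells, so a peak cannot be given to one of these cell types, and expression of the genes was not measured. The labels do not say which promoter drives the fusion gene or whether the endogenous gene was still present.

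Neuroblasts form from ectoderm where proneural factors win over Notch signalling, and they divide asymmetrically: proteins such as Numb, Brat and Prospero pass to the smaller daughter cell, while a series of temporal transcription factors changes what the stem cell makes. The daughters become neurons, which switch on RNA-binding proteins such as Elav and the machinery of transmitter release, or glia, whose fate is set by glial cells missing (gcm) and reversed polarity (repo). Glia wrap axons, clear transmitter and form the blood-brain barrier.

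Wdn peaks were found at 16 of the 56 genes. A promoter summit, meaning a peak summit no more than 500 bp from any transcript start of the gene, was present at 6 genes (10.7%), against a background of 14.9% of all protein-coding genes. A gene body summit, elsewhere in the gene, was present at 14 genes (25.0%), against 6.29% of all protein-coding genes, which are far shorter. Either kind was present at 28.6% of the members and 19.1% of protein-coding genes, and 4 members held both kinds. These shares come from the main list of 3254 peaks made by the authors from both replicates, in which every peak has a global irreproducible discovery rate (IDR) of at most 0.01. The IDR estimates the share of peaks at a given rank or better that do not repeat between data sets, and the deposited values are capped so that 1e-05 is the lowest. The ranked list behind it held 132052 peaks. Alone, replicate 1 gave 1996 peaks and replicate 2 gave 1796. With 1 group, and with the control library not analysed here, no test of the gene groups was made, and all counts below are descriptions.

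The strongest summits at the members lay at promoters and in introns. The sequences below are the 101 bases around 8 member summits, chosen to show promoter peaks from each group and the stronger intronic peaks. The pnt promoter peak among them is not strong, with a signal of 72.6 against a member median of 83.9. Sequences are on the strand of the gene and read 5′ to 3′ from the dm6 genome. Capitals mark any of the searched words, described further below, on either strand (CTCTC and TTTTAA are the reverse complements of GAGAG and TTAAAA). The windows lie at chrX:2050247-2050347 (moody, minus strand), chrX:523455-523555 (elav promoter, minus strand), chr2L:9449592-9449692 (numb, plus strand), chr3R:23314461-23314561 (pnt, minus strand), chrX:522573-522673 (elav intron, minus strand), chr2L:19165123-19165223 (brat, plus strand), chrX:11423306-11423406 (Gs2, plus strand) and chrX:3162442-3162542 (N, plus strand). All 8 summits lie in introns or upstream of the gene.
moody promoter: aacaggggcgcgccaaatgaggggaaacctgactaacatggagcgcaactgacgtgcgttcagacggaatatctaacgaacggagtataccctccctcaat
elav promoter: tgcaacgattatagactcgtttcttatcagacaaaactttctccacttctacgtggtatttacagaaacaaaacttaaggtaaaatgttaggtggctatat
numb internal promoter: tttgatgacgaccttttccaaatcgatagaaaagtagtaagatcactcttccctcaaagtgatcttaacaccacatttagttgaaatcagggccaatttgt
pnt internal promoter: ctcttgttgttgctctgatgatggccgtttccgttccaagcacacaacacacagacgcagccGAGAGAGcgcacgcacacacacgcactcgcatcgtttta
elav intron: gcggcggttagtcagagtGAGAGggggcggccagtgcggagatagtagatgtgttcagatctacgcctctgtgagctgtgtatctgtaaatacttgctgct
brat intron: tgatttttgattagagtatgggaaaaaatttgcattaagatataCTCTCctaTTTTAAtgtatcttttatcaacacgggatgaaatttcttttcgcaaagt
Gs2 intron: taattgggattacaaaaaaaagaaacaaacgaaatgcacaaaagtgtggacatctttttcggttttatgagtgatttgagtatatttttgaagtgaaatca
N intron: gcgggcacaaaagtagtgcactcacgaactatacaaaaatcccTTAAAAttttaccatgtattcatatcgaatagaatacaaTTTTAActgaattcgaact

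These windows differ widely in base content. The moody promoter window, at the highest peak of all members, holds 47.5% A and T and none of the searched words. Those of Gs2 and brat hold 71.3% and 72.3%. Among the promoter windows shown, the one at pnt holds a GAGAG run.

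Among the neuroblast genes, summits were found at 5 of 22 (22.7%), near the 19.1% of all protein-coding genes. Each of these 5 had a summit in its body. Promoter summits were present at numb and insc. None of the 3 proneural genes and none of the 6 neuroblast transcription factor genes listed (ase, wor, dpn, SoxN, D and nerfin-1) had a summit in the main list.

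Of the genes of asymmetric division, 3 of 5 held a summit, against 19.1% of all protein-coding genes. These 5 genes are longer, with a median of 26720 bp against 2164 bp. The largest summit was in an intron of brat, which encodes a translational repressor inherited by the differentiating daughter. Its signal value was 248.5 in the main list, 147.7 in replicate 1 and 98.8 in replicate 2, and both replicates listed the peak on their own. The summit, at position 19165173 of chromosome 2L, lies 694 bp upstream of an internal start of brat and so just outside the promoter window. Far inside the gene, at 19141889, a weak second peak had a signal of 49.6, with 39.1 in replicate 1 and 8.58 in replicate 2. Only replicate 1 listed it.

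The gene numb, which encodes the inhibitor of Notch that is handed to one daughter, carried the strongest promoter peak of the neuroblast group. Its signal was 218.9, with 107.9 in replicate 1 and 100.6 in replicate 2, and its IDR was at the lowest value, 1e-05. Both replicates listed it with nearly equal signal. The summit lies 188 bp upstream of an internal start of numb, within an intron of the longer transcript. A further summit 724 bp upstream of the same start had a signal of 48.2, with 31.8 and 23.0 in replicates 1 and 2, and was in neither replicate's own list.

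All peaks were weak at insc, whose product orients the spindle and links it to the apical polarity complex. Its promoter summit had a signal of 54.0 (IDR 0.00709), with 36.8 in replicate 1 and 16.3 in replicate 2, and neither replicate listed it. That summit is 94 bp inside the start, in the 5' UTR, and the same start is annotated for skittles (sktl), a lipid kinase gene. Both intronic summits were near the threshold, with signals of 58.9 and 58.7 and IDR values of 0.00674 and 0.00886. Neither replicate listed the first, with 21.9 in replicate 1 and 33.0 in replicate 2. Replicate 1 listed the second, with 39.1, and replicate 2 had no ranked peak there. The intronic summits lie 4291 and 4956 bp downstream of the insc start. Another start of sktl is closer, 681 and 1346 bp away, so these summits cannot be given to insc alone. The conservative list held no peak of insc.

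In the Notch pathway, a summit was found at the receptor gene and at none of the ligand gene and the 2 target genes listed. The summit of N lies in an intron 27622 bp downstream of the start. Its signal was 126.4, with 69.3 in replicate 1 and 58.7 in replicate 2, and both replicates listed it. For Dl, the ligand gene, the lowest IDR of a ranked peak in the body was 0.217. E(spl)m7-HLH and E(spl)m8-HLH, which encode repressors switched on by Notch, had no summit, and the nearest lay 5500 and 2298 bp away. That summit, of signal 269.2, is 103 bp from the start of the neighbouring gene groucho (gro), which encodes the corepressor that E(spl) proteins recruit.

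Of the 4 temporal factor genes, 1 held a summit, against 19.1% of all protein-coding genes. The gene grh encodes the last factor of the embryonic series and also acts in the epidermis. Its intronic summit, 2074 bp downstream of a start on chromosome 2R, had a signal of 107.2, with 60.0 in replicate 1 and 41.6 in replicate 2. Replicate 1 listed the peak and replicate 2 did not, although its IDR there was 0.0179. For pdm2 and nub, a pair of neighbouring POU factor genes, the lowest promoter IDR was 0.111 and 0.113.

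The achaete-scute genes lay far from any main-list peak. For ac, sc, l(1)sc and ase the same summit was nearest, with a signal of 553.3, and it was 123968, 97939, 84278 and 33252 bp away. It lies 504 bp from the start of CG17896. No ranked promoter peak of any strength was found at ac or ase, and at sc the lowest promoter IDR was 0.397.

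Among the neuron genes, 6 of 22 (27.3%) held a summit, against 19.1% of all protein-coding genes. These shares are not matched for length, since the median was 21420 bp in neuron genes and 2164 bp in all protein-coding genes. The summit was at the promoter of 2 genes (9.09%, against 14.9%) and in the body of 5. The largest by far was at elav, the RNA-binding protein gene used to mark neurons. Its promoter signal was 323.5, rank 123 of the main list, with 152.6 in replicate 1 and 169.7 in replicate 2. Both replicates placed it at an IDR of 1e-05. The summit lies 279 bp upstream of a start, which the annotation also gives to lncRNA:enrr. A separate intronic summit 603 bp downstream of that start had a signal of 127.3, with 48.5 in replicate 1 and 75.0 in replicate 2, and both replicates listed it. So elav was the only neuron gene with both kinds of summit.

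Of its paralogs, fne held an intronic summit and Rbp9 held none. The fne summit, 8544 bp downstream of a start, had a signal of 83.2, with 47.9 in replicate 1 and 37.1 in replicate 2, both listed. At Rbp9 the lowest promoter IDR was 0.245.

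The transmitter genes were represented by ChAT, which makes acetylcholine. Its summit had a signal of 120.5, with 79.9 in replicate 1 and 40.3 in replicate 2, and both replicates listed it. It lies in an intron 14454 bp downstream of the start that ChAT shares with VAChT, the vesicular transporter gene nested in the same locus, and beyond the end of VAChT. A closer start is that of lncRNA:CR46265, 332 bp away. The genes VAChT, VGlut, Gad1 and VGAT had no summit, although one of signal 62.7 lay 1659 bp from a start of VGlut, outside the gene.

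Nrx-1, which encodes a presynaptic adhesion protein, was the other neuron gene with a promoter summit. Its signal was 91.0 and its IDR 0.000472, with 52.2 in replicate 1 and 38.6 in replicate 2. Only replicate 1 listed it, and in replicate 2 the IDR was 0.0146. The summit is 132 bp upstream of a start and inside the 5' UTR of another transcript.

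Of the 8 genes of vesicle release, 1 held a summit of either kind, and of the 4 channel and pump genes also 1, against 19.1% of all protein-coding genes. The release gene was Snap25, a SNARE protein gene. Its signal was 47.2 and its IDR 0.00992, the highest IDR of any listed member peak. The replicates gave 19.2 and 27.3 and listed it in neither. The channel gene was para, which encodes the sodium channel and held a summit in its 3' UTR, the only exonic gene body summit of the members. The main-list signal was 68.6, with 28.5 in replicate 1 and 41.0 in replicate 2, and again neither listed it. The closest release gene below the threshold was Syt1, the calcium sensor gene, with a promoter IDR of 0.0376 and a signal of 41.3.

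Glia genes held summits at 5 of 12 (41.7%), against 19.1% of all protein-coding genes, whose median length is lower. The highest peak of all 56 genes was at the promoter of moody, which encodes a G protein-coupled receptor of the glia that seal the blood-brain barrier. Its signal was 490.0, rank 52 of the main list, with 252.4 in replicate 1 and 238.3 in replicate 2. Both replicates listed it at an IDR of 1e-05. The summit lies 177 bp upstream of the start, and no other gene starts within 500 bp of it.

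The gene loco encodes a regulator of G protein signalling that acts with Moody in the same glia. It had no promoter summit, and its lowest promoter IDR was 0.109. Of its intronic summits, the stronger had a signal of 69.4, with 32.8 in replicate 1 and 34.4 in replicate 2. The weaker, 647 bp upstream of a start, had a signal of 61.8. There replicate 1 gave a signal of 5.96 at an IDR of 0.0189, and replicate 2 gave 25.8 at an IDR of 0.72. Neither of these 2 summits was in a replicate's own list. Replicate 1 alone listed another peak between them, with a signal of 39.5 and 701 bp from a start. In the ranked list of both replicates the overlapping peak had an IDR of 0.126.

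The main list held 5 summits at pnt, more than at any other member. Fewer were counted in other lists: 3 in each replicate's own list, 3 in the conservative list and 2 at an IDR of at most 0.001. The gene encodes ETS transcription factors of the Ras pathway, one of which acts in glia. The strongest body summits had signals of 102.1 and 100.5, and both replicates listed both, with 60.6 and 39.3 for the first and 50.6 and 50.5 for the second. Its promoter summit, 196 bp upstream of an internal start, had a signal of 72.6, with 54.4 in replicate 1 and 16.4 in replicate 2. Only replicate 1 listed this one, and the conservative list left it out. The remaining body summits were weaker, at 66.1 and 51.6.

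Gs2, which encodes a glutamine synthetase used to recycle glutamate, held an intronic summit only 524 bp from its start. Its signal was 172.1, with 70.2 in replicate 1 and 103.2 in replicate 2, and both replicates listed it. It thus fell just outside the promoter window of 500 bp. For sli, the midline repellent gene, the intronic summit had a signal of 84.6, with 51.6 and 28.7, and only replicate 1 listed it. A ranked peak 28 bp from a start of sli had a signal of 64.3 and reached an IDR of 0.0110, just outside the threshold, and replicate 1 alone listed a promoter peak there.

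The fate factors repo, gcm and gcm2 had no summit. The nearest lay 7562, 12997 and 8214 bp away. The lowest promoter IDR was 0.149 for gcm, which directs glial fate, and 0.435 for repo, its target. It was 0.354 for gcm2. Of the other glia genes without a summit, wrapper had 0.228, sim 0.538, the glutamate transporter gene Eaat1 0.488 and nrv2 0.0603, the last at a low signal of 14.0.

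**Figure D1:**
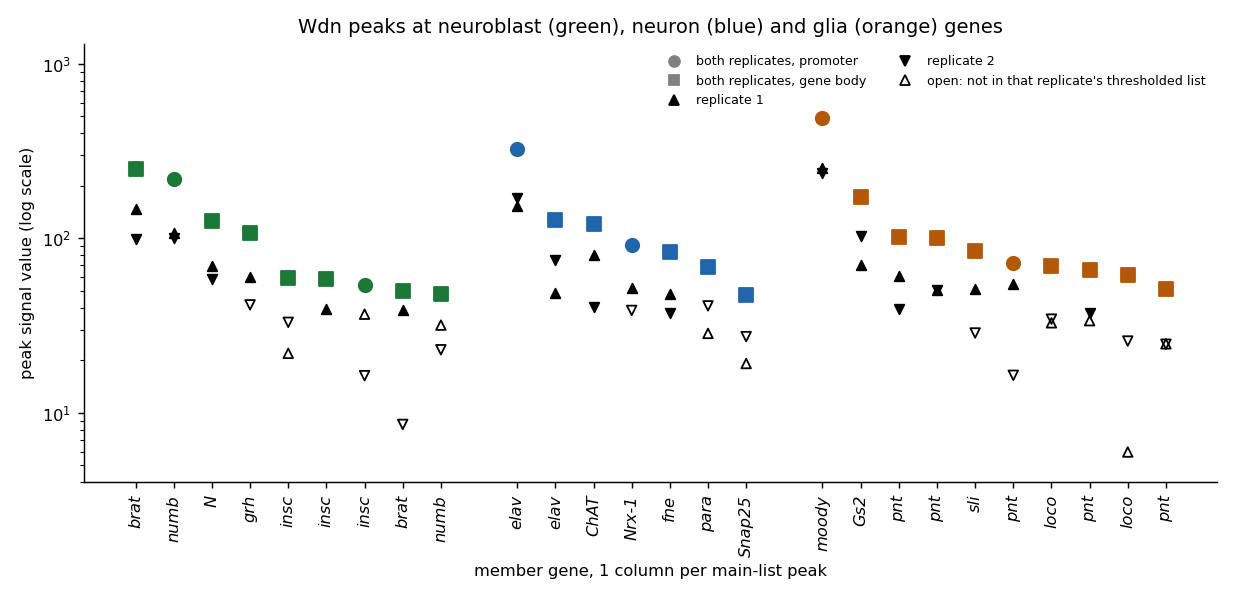
Signal value (log scale) of the 26 main-list peaks at members, 1 column per peak ordered within each gene group by main-list signal, with the value in each replicate (triangles). Circles are promoter summits and squares gene body summits from both replicates together. The peaks at moody, elav, brat and numb stand highest and are filled in both replicates, while 8 of the 26 have open triangles only.

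The replicates were compared at each of the 26 member peaks. In 11 (42.3%) the peak was in both replicates' own lists, against 39.2% of all 3248 main-list peaks on the chromosome arms. In 8 (30.8%) it was in neither, against 29.1%. Of the other peaks, 6 were listed by replicate 1 only and 1 by replicate 2 only, against 594 and 437 of the 3248. The conservative list held 18 of the 26 (69.2%), against 76.7% of all. The median signal was 83.9 (quartiles 59.6 and 124.9), against 76.6 (58.2 and 117.4) for all main-list peaks. By group the medians were 58.9 for neuroblast, 91.0 for neuron and 78.6 for glia peaks. So the member peaks were close to the list as a whole in strength and in how often the replicates listed them.

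Promoter summits were counted again in each replicate's own list. Replicate 1 listed a promoter summit at 6 members, 1 neuroblast, 2 neuron and 3 glia genes, against a background of 9.61% of protein-coding genes. Replicate 2 listed 3, 1 in each group, against 9.84%. The genes listed by both were numb, elav and moody. The main list gave 2 genes in each group.

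**Figure D2:**
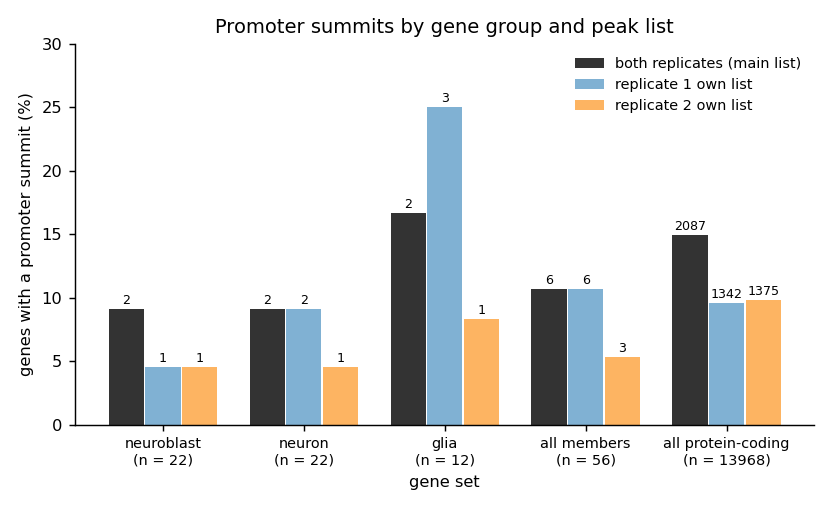
Percent of genes with a promoter summit (y axis) in each gene group, all members and all protein-coding genes, for the main list and each replicate's own list, with the number of genes above each bar. Every group rests on 1 to 3 genes per list, and glia genes range from 1 to 3 of 12.

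Ranked promoter peaks of any IDR, above or below the threshold, were compared next. A ranked promoter peak was present at 51 of the 56 members, against 11379 of all 13968 protein-coding genes. The 51 include the 6 members with a promoter summit in the main list. None was found at ac, ase, Snap25, unc-13 and nrv3. The median of the lowest promoter IDR was 0.477 over the members, against 0.480 over the 11379 protein-coding genes with such a peak. It was 0.514 for neuroblast, 0.485 for neuron and 0.188 for glia genes. The glia genes thus had the lowest median, over 12 genes, with sli, nrv2 and loco at 0.0110, 0.0603 and 0.109. Each value is the lowest over all starts of a gene, and nrv2 and loco have 4 starts each. Other genes of these cell types, described further below, were ordered differently. Their medians were 0.226 for neuroblast, 0.409 for neuron and 0.535 for glia genes. Among the members without a summit in the other roles, the gene with the lowest value was pros (0.240), whose homeodomain protein enters the daughter nucleus, D (0.477), a Sox factor gene, and E(spl)m8-HLH (0.516). Among the neuron genes without a summit it was VAChT (0.389), the microtubule-associated protein gene futsch (0.485) and the potassium channel gene Sh (0.524). Apart from these, ranked peaks just past the threshold lay in gene bodies: an insc body peak had an IDR of 0.0107, a brat body peak 0.0130, a pnt body peak 0.0170 and body peaks of N 0.0149 and 0.0182.

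**Figure D3:**
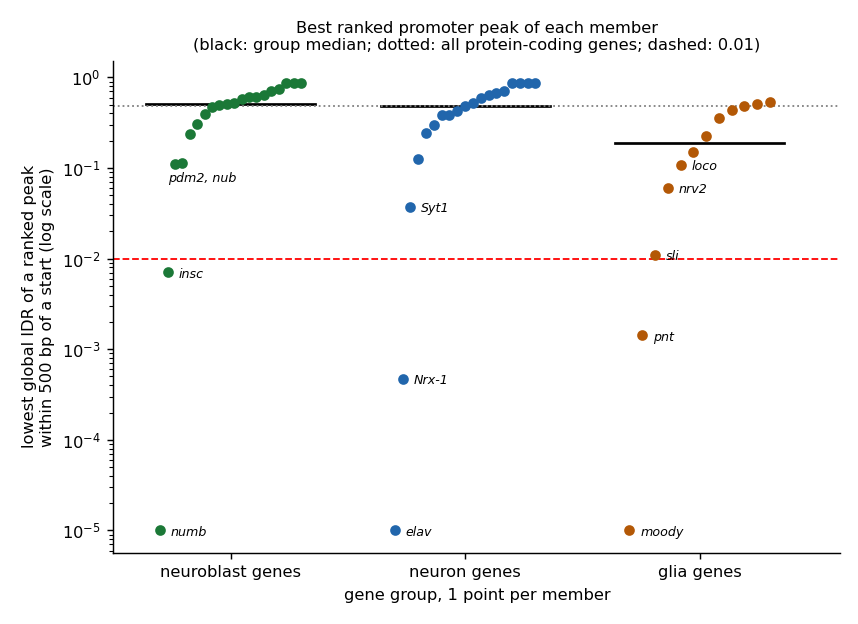
Lowest global IDR among the ranked promoter peaks (y axis, log scale) of each member that has one, by gene group. Bars are group medians, the dotted line the median of all protein-coding genes (0.480) and the dashed line the threshold of 0.01; 6 genes lie under it and sli lies just above it.

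Over classes of gene length, the share of genes with a gene body summit rose with length. Across the 3 groups it did not follow median length, at 22.7% of neuroblast, 22.7% of neuron and 33.3% of glia genes. Members had a median length of 13540 bp, against 2164 bp over all protein-coding genes, and the neuron genes were longest, with 21420 bp, against 7862 bp for glia and 3596 bp for neuroblast genes. None of 5 members of up to 2 kb held a body summit, against 0.429% of protein-coding genes of that length. From 2 to 10 kb it was 1 of 20 (5.0%), Gs2, against 4.49%. From 10 to 30 kb it was 5 of 16 (31.2%), against 25.9%. Above 30 kb it was 8 of 15 (53.3%), against 39.7%. Within classes of length the members were therefore nearer to the background than the pooled 25.0% and 6.29%.

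**Figure D4:**
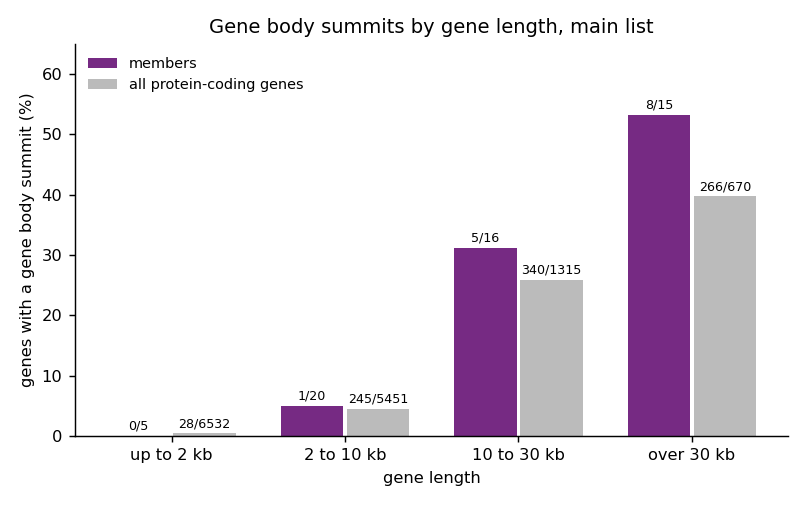
Percent of genes with a gene body summit in the main list (y axis) by class of gene length (x axis), for members (purple) and all protein-coding genes (grey), with counts above the bars. Both rise with length, from 0 of 5 to 8 of 15 in the members.

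Per length, members pooled over the 3 groups held body summits at nearly the density of all genes, while the groups differed. The members had 20 summits in 1416 kb, or 1.41 per 100 kb, and all protein-coding genes had 1.42. The density was 0.585 in neuron genes (5 summits), 1.90 in neuroblast genes (7 summits) and 4.17 in glia genes (8 summits). Among the glia genes pnt alone gave 4 of the 8, and without it the density was 2.94. Leaving out Snap25, the longest neuron gene, gave 0.635 in neuron genes. In neuroblast genes the density was 1.55 without brat and 1.41 without insc. Of all body summits, 19 lay in introns and 1 in a 3' UTR, and none of the 26 summits was in a coding exon. The promoter summits were upstream of the gene at 2 genes, in the 5' UTR at 2 and in an intron of a longer transcript at 2.

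Ranked peaks were sparse in some long members, which were picked after their values were seen. The calcium channel gene cac, of 53808 bp, held 1 ranked body peak and 2 ranked promoter peaks, or 0.558 ranked peaks per 10 kb. The sodium pump subunit gene nrv3, of 13320 bp, held none. In Snap25 and unc-13 there were 2.22 and 2.25 per 10 kb. The median was 11.2 per 10 kb for 31 members over 10 kb and 11.7 for 1985 protein-coding genes over 10 kb. The lack of a summit in the body of cac and at nrv3 therefore cannot be told from a lack of ranked peaks there.

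Words around the summits were searched within 50 bp on both strands. GAGAG, the word of the GAGA factor Trl, was in 8 of 26 member peaks (30.8%), against 10.3% of all main-list peaks and 12.5% of ranked peaks outside the list. These were both peaks of brat, both of loco and 1 each at elav, pnt, sli and para, so pairs within a gene are counted separately. The comparison is not matched for position. Of the 26 member summits 20 lie in gene bodies, while 1622 of the 3248 main-list summits lie at promoters of protein-coding genes. A share for main-list gene body peaks alone was not taken. TTAAAA was in 7 (26.9%), against 29.5% and 10.6%. CACAGTG was in 1, at para, against 3.08% and 1.38%. The E-box CAGCTG, bound by proneural factors, was in 1, at sli, against 3.85% and 5.73%. TATCGATA of Dref, GGTCACAC of M1BP and CAGGTA of Zelda were in none of the 26, against 1.39%, 0.770% and 1.88% of main-list peaks. The words TTAAAA and CACAGTG were taken from an earlier look at these data. Overlap between words was allowed. A match is a run of letters and not a shown site.

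The base content of the member windows was near that of the whole list. The mean share of A and T was 62.5% ± 9.75 (SD over 26 peaks), against 63.5% ± 10.8 for all main-list peaks. Neuroblast peaks had 65.8% ± 6.36, neuron peaks 57.1% ± 12.7 and glia peaks 63.2% ± 9.30. The intronic peak of grh was highest with 74.3% and the 3' UTR peak of para lowest with 41.6%. These peaks share a genome and, in several genes, a locus, and are no replicates.

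Among 103 other genes of the same 3 cell types, promoters were bound at 19 (18.4%, against 14.9% of protein-coding genes) and bodies at 14 (13.6%, against 6.29%). These genes, too, were longer than most, with a median of 10430 bp. The other neuroblast genes had a promoter summit at 12 of 42 (28.6%), the neuron genes at 5 of 42 (11.9%) and the glia genes at 2 of 19 (10.5%), beside the same 14.9%. Of the 12 neuroblast genes, most were genes of asymmetric division: aPKC, par-6, dlg1, scrib, stau, aurA and polo. Notch signalling gave gro, mam and E(spl)m3-HLH. Only da came from the neuroblast transcription factors and only hb from the temporal factors. The strongest in the neuroblast group was gro, with a signal of 269.2. It was followed by the polarity genes par-6, with 139.1, and dlg1, with 133.8, and by E(spl)m3-HLH, a Notch target gene, with 108.0. The strongest neuron gene was chb, a microtubule-binding protein gene, with 226.7. Then came the channel genes Shab, with 65.5, sei, with 58.6, and Ca-beta, with 54.9. In the glia group there were aos, a secreted inhibitor of the EGF receptor, with 67.5, and comm, which controls axon crossing at the midline, with 56.5.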

How the data were processed

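Peaks came from ChIP-seq of 2 biological replicates. Per the file headers, the deposited lists are on dm6; the aligner, peak caller and read depth are not given in the sources used here. Each peak carries a signal value of the authors, relative to a quantity not stated, which serves here for description and ranks. The -log10 of the global IDR in the deposited ranked lists, capped at 5, was turned into an IDR. The ranked lists hold 8 columns of values with no sample label, which were not used. The main list is the thresholded list of both replicates not named conservative.

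Summits were assigned to genes of Ensembl release 115 (same assembly) with Python 3.11.15 and pandas 2.3.3. A promoter summit lay within 500 bp of any transcript start of a gene, and a body summit elsewhere in it. Shares are set beside all 13968 protein-coding genes on the chromosome arms, 4 and Y. A replicate's value is its ranked peak that overlaps by at least 1 base with the nearest summit. Of the members, 1 (Dl, annotated as Delta) was matched by hand. Assignment was tested on simulated summits. Every member with a summit is named, and of those without, the one per role with the lowest promoter IDR. Other members without a summit were named after their values were seen. The members and lists were chosen with earlier results of these data known. No test was made, since there is 1 group and the control library was not analysed here.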

Additional observations from a re-analysis of the deposited data

How the results depend on the processing

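The counts of members with a summit were taken again with other peak lists, windows and rules of assignment. Of 60 such counts, 40 stayed within 1.5 times the reported one and 20 did not. With the conservative list, promoter genes fell to 1 in the neuroblast and 1 in the glia group. An IDR of at most 0.001 left 1 neuroblast and 1 glia gene at promoters, and 3 neuroblast and 3 neuron genes with body summits. A window of 200 bp left 1 neuron gene, and a window of 1000 bp, or any base of the peak in place of the summit, gave 4 glia genes. Counting only the most upstream start left 1 gene in each group. Using 1 replicate's own list, leaving out the other, gave 1 neuroblast, 1 to 2 neuron and 1 to 3 glia genes at promoters, and 2 to 4, 3 and 2 to 4 genes with body summits. Assigning each summit to its nearest start moved no count past 1.5 times. Adding the 113 passing ranked peaks outside the main list could change no count, since 0 of them lay at members. The counts of that setting are nevertheless among the 40. The cause of these shifts was not tested.

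Of the 16 bound members, 14 kept a summit in the conservative list, which lacks insc and Snap25, and 12 at an IDR of at most 0.001, without loco, insc, para and Snap25. The list of replicate 2 alone held 9, without sli, loco, grh, insc, Nrx-1, para and Snap25. The list of replicate 1 alone held 14, without para and Snap25, with loco counted through a summit that is not in the main list. Only 2 replicates were available, and the read depth behind each peak is unknown.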
